A study of Rattus norvegicus with 12 samples.

Results

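Mx1 (ENSRNOG00000001959) and Mx2 (ENSRNOG00000001963), the rat Mx genes, were followed through every RNA-seq library of WT, VAMP7KO and ATG5KO NRK cells. They are 2 of the 20842 genes in the count table. Both were matched to the table through pairs of symbol and identifier given with the lists of changed genes. They were chosen by their measured counts in these same libraries, which differed widely between genotypes, and between replicates 1 and 2 on the one hand and replicates 3 and 4 on the other. Their levels and differences are therefore a description, with no test.

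NRK is a cell line from normal rat kidney. The labels call it epithelial, and the study also calls these cells fibroblastic. WT cells carried neither knockout. VAMP7KO cells lack VAMP7, a vesicle SNARE of late endosomes and lysosomes, and ATG5KO cells lack ATG5, which is needed to attach LC3 to the autophagosome membrane. The knockouts were made with CRISPR-Cas9 and grown from sorted single cells, so that a genotype cannot be told apart from the clone that carries it. No drug or interferon treatment is named for these cultures. Each genotype had 4 libraries, numbered 1 to 4. A library came from 1 dish, with 600 ng of total RNA as input to strand-specific mRNA preparation and reads of 50 bases. The summed gene counts of a library were 21090858 to 31525111. Levels are given as CPM, counts scaled to library size with TMM factors, and 3 counts, taken here as the floor, correspond to 0.0986 to 0.139 CPM. Vamp7 itself was lower in VAMP7KO than in WT by 1.27 on the log2 scale (SE 0.0772, adjusted p = 6.08e-06, edgeR's quasi-likelihood test), and Atg5 was not analysed here. Of 11 epithelial markers only Krt8 could be matched to an identifier, and it had 452 to 875 CPM in the 12 libraries.

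Mx proteins are large GTPases of the dynamin superfamily that assemble into rings and block the replication of many viruses. Their genes are switched on by type I and type III interferons, through the transcription factor ISGF3 and the response elements it binds, and are close to silent in most unstimulated cells. In rodents, Mx1 is the nuclear form and Mx2 a cytoplasmic form. They serve as standard readouts of an interferon response, next to the oligoadenylate synthetases, the IFIT proteins and the guanylate-binding proteins.

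Mx1 was counted in WT and was at or near the floor in both knockouts. WT replicates 1 to 4 had 606, 568, 73 and 53 Mx1 reads, which is 20.5, 19.7, 2.40 and 1.89 CPM. VAMP7KO replicates 1 to 4 had 0, 3, 3 and 11 reads, and the highest of these, in replicate 4, was 0.452 CPM. ATG5KO replicates 1 to 4 had 1, 0, 0 and 2 reads, all under the floor. Every WT library was thus above every knockout library, whereas the libraries of the knockouts overlapped each other.

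Mx2 was ordered in another way. WT replicates 1 to 4 had 177, 155, 3 and 5 Mx2 reads, or 5.98, 5.37, 0.0986 and 0.178 CPM. VAMP7KO had 14, 10, 5 and 2 reads, or 0.468, 0.452, 0.181 and 0.0823 CPM. ATG5KO had 80, 138, 32 and 17 reads, or 3.72, 4.79, 1.15 and 0.783 CPM. WT libraries lay at both ends of the range, above all others in replicates 1 and 2 and among the lowest in replicates 3 and 4. Every ATG5KO library was above every VAMP7KO library.

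**Figure D1:**
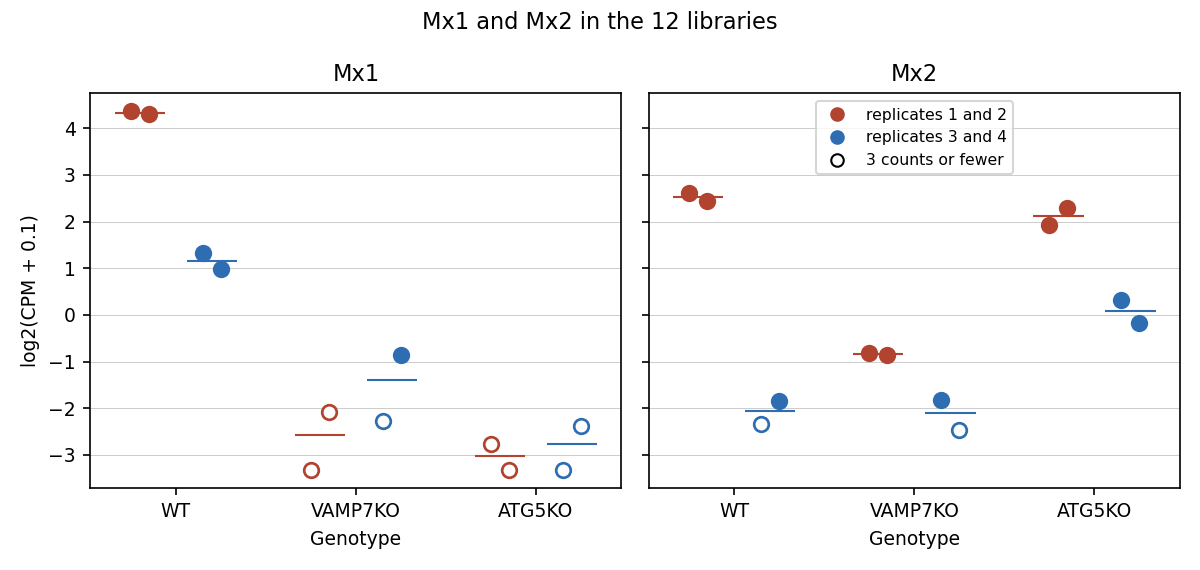
Level of Mx1 (left) and Mx2 (right) in each library as log2(CPM + 0.1), by genotype, with replicates 1 and 2 in red, replicates 3 and 4 in blue, open circles for libraries with 3 counts or fewer and lines at the mean of each pair. Mx1 is at 1.89 CPM or more in WT alone, while Mx2 is highest in WT replicates 1 and 2 and in ATG5KO, and lowest in WT and VAMP7KO replicates 3 and 4.

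Averaged over the 2 libraries of each genotype and replicate pair, Mx1 followed the order WT 1 and 2 (20.1 CPM), WT 3 and 4 (2.14 CPM), VAMP7KO 3 and 4 (0.280 CPM), VAMP7KO 1 and 2 (0.0679 CPM), ATG5KO 3 and 4 (0.0461 CPM) and ATG5KO 1 and 2 (0.0232 CPM). From the third place on, each of these groups overlapped the next. Mx2 followed the order WT 1 and 2 (5.67 CPM), ATG5KO 1 and 2 (4.25 CPM), ATG5KO 3 and 4 (0.966 CPM), VAMP7KO 1 and 2 (0.460 CPM), WT 3 and 4 (0.138 CPM) and VAMP7KO 3 and 4 (0.131 CPM). The last 2 of these overlapped, and their means rest on 8 and 7 reads. Transcript lengths were not used, so that these levels cannot be compared between Mx1 and Mx2.

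Both genes were lower in WT replicates 3 and 4 than in WT replicates 1 and 2. For Mx1, replicates 1 and 2 were 9.32 times higher (95% exact counting interval 7.75 to 11.3). For Mx2 the ratio was 41.5, with a wide interval of 20.8 to 96.9. The fitted difference, replicates 3 and 4 minus 1 and 2, was -3.22 on the log2 scale for Mx1 (SE 0.258) and -5.33 for Mx2 (SE 0.374). The fall was thus larger for Mx2, and the number of Mx1 reads per Mx2 read in WT went from 3.42 and 3.66 in replicates 1 and 2 to 24.3 and 10.6 in replicates 3 and 4. These last values rest on 3 and 5 Mx2 reads, and their counting intervals are 8.00 to 121 and 4.27 to 34.0. Intervals of this kind hold counting error alone, because the reads carry no molecular identifiers and need not be separate molecules.

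Mx2 was also lower in replicates 3 and 4 of both knockouts. In ATG5KO, replicates 1 and 2 were 4.38 times higher (interval 3.20 to 6.10) and in VAMP7KO 3.43 times higher (interval 1.43 to 9.42). The fitted log2 differences were -2.12 in ATG5KO (SE 0.284) and -1.74 in VAMP7KO (SE 0.577). Mx1 could not be compared in this way in the knockouts, where nearly all libraries were at the floor. Differences between the replicate pairs, of any size and in either direction, were common in these cells. Of the 13141 genes tested, 61.9% were called (adjusted p under 0.05, edgeR's quasi-likelihood test) between the pairs in WT, 56.1% in VAMP7KO and 52.1% in ATG5KO. Called lower in replicates 3 and 4 were 31.4%, 28.3% and 27.6%. The share of genes that fell as far as Mx2 is not given here. The labels give no batch, so what sets the pairs apart cannot be told from them, and in bulk RNA a smaller share of cells with the transcript and less transcript per cell cannot be told apart.

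In VAMP7KO, both genes were low and the size of the difference from WT depended on the replicate pair. Mx1 was 348-fold lower than in WT in replicates 1 and 2, a ratio that rests on 3 VAMP7KO reads (interval 119 to 1691), and 8.01-fold lower in replicates 3 and 4 (interval 4.60 to 15.1). Mx2 was 12.3-fold lower than in WT in replicates 1 and 2 (interval 8.13 to 19.5). In replicates 3 and 4 the ratio of VAMP7KO to WT was 0.984, with an interval of 0.304 to 3.10, so a difference was not detectable at this depth. With all replicates in 1 fit, the log2 difference was -5.59 for Mx1 (SE 0.881) and -2.81 for Mx2 (SE 0.668). The WT and VAMP7KO libraries did not overlap for Mx1 and did for Mx2. Over all genes tested, 22.9% were called between these genotypes, 12.3% lower and 10.5% higher in VAMP7KO.

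In ATG5KO, Mx1 and Mx2 parted. Over all replicates, 3 Mx1 reads in ATG5KO against 1300 in WT gave a 370.2-fold lower level (interval 126 to 1797). In replicates 3 and 4 alone, with 2 reads against 126, it was 53.4-fold lower (interval 14.5 to 446). Mx2 was present in all 4 ATG5KO libraries. It was somewhat lower than in WT in replicates 1 and 2, with a ratio of 0.762 (interval 0.640 to 0.907), and 7.23 times higher than in WT in replicates 3 and 4 (interval 3.39 to 17.7). Within each pair the libraries of the genotypes did not overlap, and they stood in opposite orders. Over all 4 replicates the ratio was 0.919 and the fitted log2 difference 0.47 (SE 0.532), a size smaller than its error that stands for neither pair. Without the replicate block, the fitted difference was -0.15. Between ATG5KO and WT, 46.3% of the genes tested were called, 23.6% higher and 22.7% lower.

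The reversal of Mx2 was not rare among the genes tested. In ATG5KO against WT, 13.2% of them were lower in replicates 1 and 2 and higher in replicates 3 and 4 by the pair means, and 4.95% did so with no overlap of libraries, as Mx2 did. The WT libraries made the larger part of the reversal: between the pairs Mx2 went down 41.5 times in WT and 4.38 times in ATG5KO.

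Set against each other, the knockouts differed in Mx2 in the same direction in both pairs. VAMP7KO had 0.107 times the Mx2 of ATG5KO in replicates 1 and 2 and 0.136 times in replicates 3 and 4, and the fitted log2 difference was -3.28 (SE 0.674). For Mx1 the direction was the other way but rests on few reads. VAMP7KO had 14 Mx1 reads and ATG5KO had 2 in replicates 3 and 4, a ratio of 6.67 with an interval of 1.53 to 60.5, and 11 of the 14 came from VAMP7KO replicate 4. Both were at the floor in replicates 1 and 2. Between the knockouts, 44.9% of the genes tested were called.

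The share of Mx1 among the reads of the pair shows the same split within a library, where depth cancels. Mx1 made up 77.4% and 78.6% of the Mx1 and Mx2 reads in WT replicates 1 and 2, and 96.1% and 91.4% in replicates 3 and 4. In ATG5KO it made up 1.23%, 0%, 0% and 10.5%, with 19 to 138 reads of the pair per library. In VAMP7KO the shares were 0%, 23.1%, 37.5% and 84.6%, but no library had more than 14 reads of the pair. In ATG5KO replicates 1 and 2, where 80 and 138 reads were assigned to Mx2, only 1 and 0 were assigned to Mx1. Reads that fit both genes equally well may be lost from both counts, since the genes are close relatives, and RefSeq lists Mx3 as another name of Mx2.

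**Figure D2:**
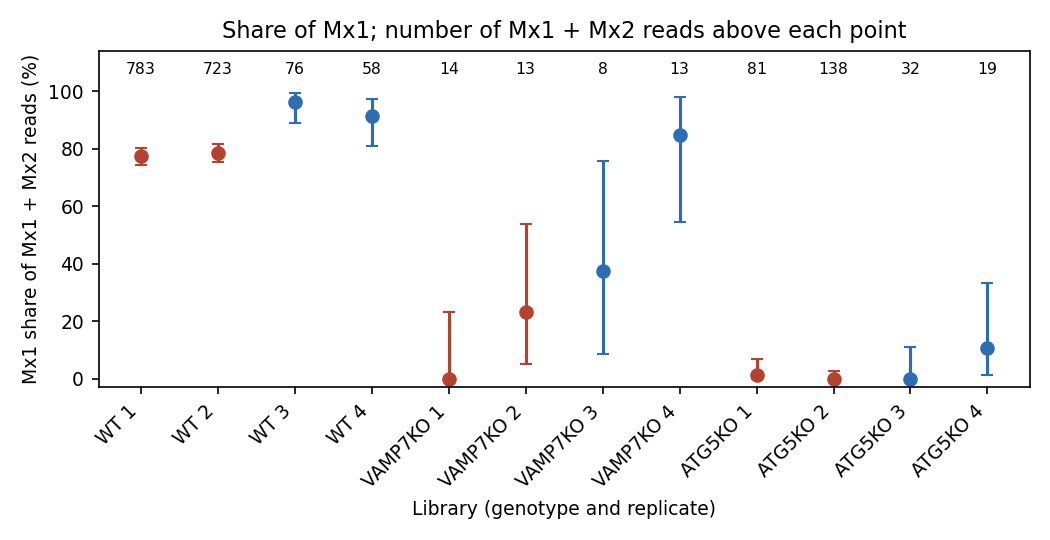
Share of Mx1 in the sum of Mx1 and Mx2 reads of each library in percent, with exact 95% binomial intervals and the number of reads above each point, replicates 1 and 2 in red and 3 and 4 in blue. The share is 77.4% to 96.1% in WT and at most 10.5% in ATG5KO, and the VAMP7KO points rest on 8 to 14 reads.

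Interferon genes switch on through short elements near their start sites. In the RefSeq promoter table (GRCr8, 250 bases before to 50 after the start site, 1 window per gene), the core of the interferon-stimulated response element, GAAANNGAAA, was looked for on both strands. It was found in 3.77% of 27457 windows, and in 36 of the 68 windows of other genes of the interferon system. The Mx1 window had 0 matches to it and 0 to TTCNNNGAA, the palindrome bound by STAT dimers, which 8.68% of all windows held. It had 1 match to the shorter GAAACT, a sequence that can overlap the longer element and that 16.5% of windows held. No match says only that these letters are not in this window, which starts from 1 of the possible start sites. Of the Mx1 window, 157 bases lie before the first base of the gene as RefSeq lists it. The GAAACT match lies after that base, within the gene. The window around the Mx1 match is printed here with those of 6 other interferon genes as examples, chosen with their values known, of the 10 for which a window could be cut. Isg20 was lower in ATG5KO than in WT and the remaining 5 higher, and all hold the same core, in capitals. For Mx1 the capitals mark GAAACT, at position -46 from the start site that the window uses. Each is read 5′ to 3′ on the strand that carries the motif.
Mx1, chr11:50294639-50294660, minus strand: ctgatttcGAAACTccgttgtt
Oas3, chr12:41439629-41439654, plus strand: agagaggaGAAAACGAAAgtgaatga
Oasl2, chr12:47383319-47383344, plus strand: caagcctgGAAACTGAAAccaaagct
Ifi44l, chr2:243328656-243328681, plus strand: ccagtgagGAAAATGAAAgtaaaggg
Lgals3bp, chr10:104127881-104127906, minus strand: gttttctgGAAATCGAAActagacta
Gbp5, chr2:233910935-233910960, minus strand: tctaaactGAAATTGAAActacacaa
Isg20, chr1:142239959-142239984, plus strand: atgaaccaGAAACTGAAActaaaacg

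The other genes of the interferon system were taken from lists of ligands and receptors, sensors and adaptors, signal transducers, antiviral effectors, and antigen processing and chemokines. Of 86 symbols beside Mx, 30 could be matched to an identifier and 26 passed the filter on low counts. A symbol was known only where the study had listed the gene as changed, so a count of calls among these 26 is high by choice and is not independent evidence. No signal transducer (8 symbols) could be matched.

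Between ATG5KO and WT, 20 of the 26 were higher, 3 lower and 3 not called, with a median log2 difference of 1.60 beside 0.0078 over all genes tested. Over all genes, 23.6% were called higher and 22.7% lower. Slfn5, a Schlafen family restriction factor, had 4 reads in WT and 872 in ATG5KO, a ratio of 255 (interval 99.3 to 939). Ifnlr1, the type III interferon receptor chain, had 1 read in WT and 119 in ATG5KO (ratio 139, interval 24.5 to 5547). All 4 sensors and adaptors rose, among them Dhx58, a helicase that regulates RNA sensing, by 3.83 (SE 0.402), and Sting1, the adaptor of cytosolic DNA sensing, by 2.54 (SE 0.281). Of the 18 antiviral effectors, 14 rose, among them Oasl2, an oligoadenylate synthetase-like protein, by 3.23 (SE 0.245), and Ifit2, which binds foreign RNA, by 1.64 (SE 0.255). The 3 lower genes were Ifne, an epithelial interferon (-2.20, SE 0.435), Isg20, an exonuclease (-0.75, SE 0.160), and Trim21, an antibody receptor and ubiquitin ligase (-0.30, SE 0.107), whose call was lost in 10 of 12 fits that left out a library. Among the higher genes, Gbp4, a guanylate-binding protein, lost its call in 7 and Epsti1 in 6 of these 12 fits. Mx1 was lower beside a list that was mostly higher, while Mx2 was below WT in one replicate pair and above it in the other.

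In ATG5KO none of the 26 changed direction between the replicate pairs: by pair means, 22 were higher than WT in both and 4 lower in both. Over all genes tested, 13.2% were lower in replicates 1 and 2 and higher in replicates 3 and 4. The 26 have symbols because the study listed them as changed, which may favour genes that keep their direction. In VAMP7KO, 4 were higher in both, 12 lower in both, 1 (Ifnlr1, with no read of either genotype in replicates 1 and 2) could not be placed and 9 were lower in replicates 1 and 2 and higher in replicates 3 and 4, a pattern found in 15.6% of all genes tested. Mx1 was lower than WT in both pairs in both knockouts.

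Between VAMP7KO and WT, 2 of the 26 were higher, 6 lower and 18 not called, with a median log2 difference of -0.42 beside 0.0037 over all genes. The 8 called of 26 stand beside 22.9% called over all genes, 10.5% higher and 12.3% lower. The higher genes were Ifit2 (1.57, SE 0.255) and Gbp5, a guanylate-binding protein (0.97, SE 0.215), the latter not called with replicates 1 and 2 alone. Rnf213, a large ubiquitin ligase with antimicrobial roles, had the largest fall among the effectors called, from 206 to 443 CPM in WT to 96.4 to 130 CPM in VAMP7KO (-1.46, SE 0.224). Dhx58 and Oasl2 were not called, with log2 differences of -0.84 (SE 0.512) and 0.13 (SE 0.269). With replicates 1 and 2 alone, 16 of the list were called in place of 8. The share of all genes called in that fit is not given here, so the rise is not a result about the list. The Mx1 difference of -5.59 lay outside the values of these genes.

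Between VAMP7KO and ATG5KO, 23 of the 26 were lower in VAMP7KO and 0 higher, with a median log2 difference of -1.68, beside 23.6% lower and 21.3% higher over all genes. This comparison shares its libraries with those against WT. Mx2 had the direction of these 23 genes. The fitted Mx1 difference had the other sign (2.48, SE 1.82) but rests on few reads, most of them from VAMP7KO replicate 4. Of the other dynamin superfamily genes only Dnm1, the neuronal dynamin of endocytosis, could be matched. It had 49.2, 51.3, 22.05 and 21.7 CPM in WT and 13.7 to 22.4 CPM in VAMP7KO. In ATG5KO replicates 1 to 4 it had 35.5, 22.6, 45.3 and 46.3 CPM. Dnm1 in ATG5KO was thus below WT in replicates 1 and 2 and above it in replicates 3 and 4, as Mx2 was. The fitted log2 difference of Dnm1 in ATG5KO against WT, 0.042 (SE 0.361), stands for neither pair. It was called lower in VAMP7KO than in ATG5KO (-1.10, SE 0.358, Benjamini-Hochberg adjusted p = 0.0301, edgeR) and was not called against WT.

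**Figure D3:**
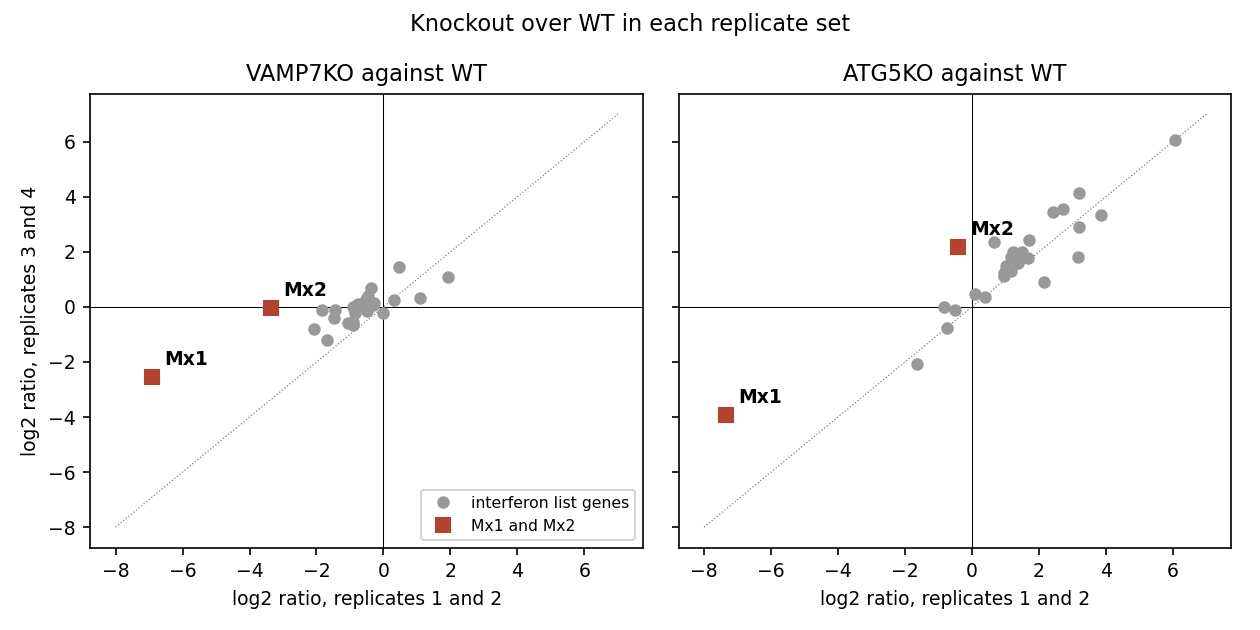
log2 ratio of knockout to WT, from mean CPM + 0.1, in replicates 1 and 2 (horizontal axis) and in replicates 3 and 4 (vertical axis) for Mx1 and Mx2 (red squares) and the 26 interferon list genes (grey), with a dotted line where both are equal. In ATG5KO, Mx2 is at -0.41 and 2.16, left of 0 and above 0. None of the 26 list genes lies there, beside 13.2% of all genes tested.

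Between the replicate pairs of WT, 14 of the 26 were lower in replicates 3 and 4, 2 higher and 10 not called, with a median log2 difference of -0.71, beside 31.4% lower and 30.5% higher over all genes tested. Cxcl10, a chemokine induced by interferon, had 24.1 and 26.2 CPM in WT replicates 1 and 2 and 6.999 and 6.53 CPM in replicates 3 and 4. In VAMP7KO 6 were lower and 5 higher, beside 28.3% lower and 27.8% higher over all genes. In ATG5KO 9 were lower and 3 higher, beside 27.6% lower and 24.4% higher. The fall of Mx1 and Mx2 in WT had the direction of those 14 genes.

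The genes most like Mx1 over the 12 libraries were, by the mean absolute difference of log2(CPM + 0.1) centred on each gene's mean, Tfec (0.56), Scn1a (0.60), Ctla2a (0.61), Sult1b1 (0.61) and Slc27a6 (0.63), out of 1312 genes with a symbol and a mean of at least 1 CPM. Tfec encodes a transcription factor of the MiT family, Scn1a a voltage-gated sodium channel, Ctla2a a cysteine protease inhibitor, Sult1b1 a sulfotransferase and Slc27a6 a fatty acid transporter. None of these 5 is in the interferon lists. Tfec had 13.9, 10.98, 1.77 and 2.46 CPM in WT and no read in any knockout library, and Slc27a6 had 22.3, 20.5, 2.004 and 2.53 CPM in WT and no read in the knockouts. Between the WT pairs, Slc27a6 fell 9.48 times (interval 7.91 to 11.4) and Scn1a 9.25 times (interval 6.75 to 12.99), beside 9.32 times for Mx1. Mx2 came only at place 552 among the 1312, with a mean difference of 2.60. Of 11590 tested genes at this level, with or without a symbol, 10213 were closer to Mx1 than Mx2 was.

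Among genes with a symbol, those most like Mx2 were Bid (0.39), Anpep (0.63), Tcim (0.64), Sod3 (0.65) and Marcks (0.66). Bid links death receptors to mitochondria in apoptosis, and Anpep is aminopeptidase N. Sod3 is the extracellular superoxide dismutase, and Marcks a substrate of protein kinase C at the plasma membrane. With genes without a symbol included, Bid was still the closest, but 4 genes were closer to Mx2 than Anpep was. Bid had 26.4, 25.9, 1.91 and 2.57 CPM in WT, 4.75, 4.61, 2.09 and 1.48 CPM in VAMP7KO and 20.1, 21.3, 7.87 and 7.05 CPM in ATG5KO. It thus showed the reversal of Mx2, with 130 reads in WT replicates 3 and 4 where Mx2 had 8: ATG5KO had 0.796 times the Bid of WT in replicates 1 and 2 (interval 0.735 to 0.861) and 3.38 times in replicates 3 and 4 (interval 2.76 to 4.16). The remaining genes most like Mx2 did not show this reversal, while Dnm1, described above, did. Anpep was lower in ATG5KO than in WT in both pairs, and Sod3 and Marcks were higher in both. Tcim was higher in replicates 1 and 2 and overlapped WT in replicates 3 and 4. Mx1 came at place 1230 in the order of likeness to Mx2 among genes with a symbol. Of 11590 tested genes, 11487 were closer to Mx2 than Mx1 was. These profiles share the libraries, and likeness was scored on the same counts as the Mx levels, so it is a description.

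**Figure D4:**
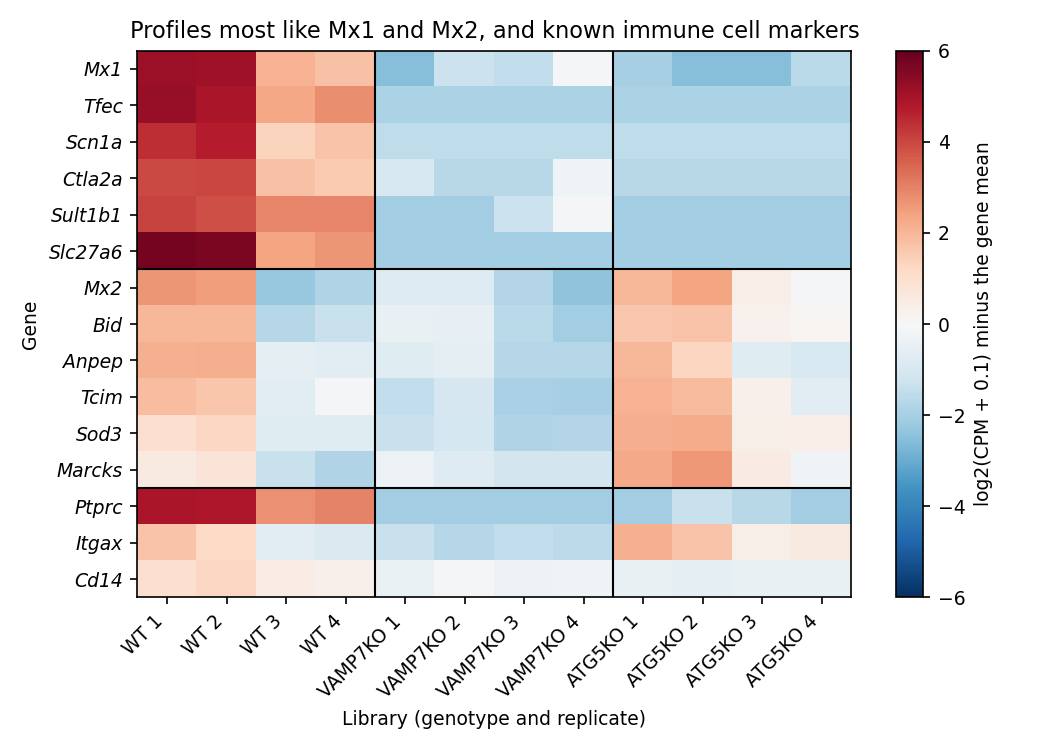
log2(CPM + 0.1) minus the mean of each gene over the 12 libraries, by colour. Rows are Mx1 and the 5 most like it, Mx2 and the 5 most like it (genes with a symbol), and 3 known immune cell markers. The Mx1 block is high in the WT libraries alone, the Mx2 block is high in WT replicates 1 and 2 and in ATG5KO replicates 1 and 2 and nearer to or below the gene means in ATG5KO replicates 3 and 4, and Ptprc follows the Mx1 block.

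Some markers of immune cells moved with Mx1. Ptprc, which encodes the leukocyte antigen CD45, had 371, 355, 84 and 90 reads in WT, 0 in every VAMP7KO library and 0, 2, 1 and 0 in ATG5KO. It was at least 65.9-fold lower in VAMP7KO than in WT, with the floor of 3 counts per library in place of 0, and 256-fold lower in ATG5KO (interval 87.4 to 1245). Itgax (CD11c) was kept in ATG5KO, as Mx2 was, but without the reversal of Mx2. In replicates 1 to 4 it had 7.57, 5.33, 1.41 and 1.21 CPM in WT and 10.3, 7.66, 2.98 and 3.32 CPM in ATG5KO. It was thus above WT in both pairs. In VAMP7KO it had 0.835, 0.633, 0.758 and 0.699 CPM, with no clear fall between the pairs. Of 7 immune markers 3 were matched, and their summed level was 144.7 to 164.7 CPM in WT replicates 1 and 2, 81.7 to 88.1 CPM in WT replicates 3 and 4, 48.0 to 59.2 CPM in VAMP7KO and 48.7 to 55.4 CPM in ATG5KO. Cd14, the lipopolysaccharide co-receptor, made up most of these sums and was present in all 12 libraries, at 41.2 to 147 CPM. It was called lower than in WT in VAMP7KO (-1.03, SE 0.162) and in ATG5KO (-1.25, SE 0.164). Within WT, Cd14 was called lower in replicates 3 and 4 (-0.75, SE 0.0976). The part of other cells in the Mx levels was not tested.

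Fibroblast and smooth muscle markers (5 of 10 matched) summed to 536 to 1452 CPM in WT, 1148 to 3211 CPM in VAMP7KO and 2101 to 3767 CPM in ATG5KO, each time lower in replicates 3 and 4. Col1a1, Col3a1 and Lum were called lower in replicates 3 and 4 of all 3 genotypes, while Acta2 was called higher there in WT (1.03, SE 0.139) and VAMP7KO (1.13, SE 0.110) and lower in ATG5KO (-0.63, SE 0.145), and Dcn was not called. The endothelial marker Cdh5 (1 of 4 matched) was at most 0.608 CPM.

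Mx1 and Mx2 lie on chromosome 11 in RefSeq (GRCr8) with Fam3b, which encodes a secreted cytokine-like protein of pancreatic islets, between them. Fam3b had 24, 17, 0 and 2 reads in WT, 3, 0, 0 and 3 in VAMP7KO and 0, 0, 1 and 0 in ATG5KO. It was too low to pass the filter for testing, and its WT libraries were high where those of both Mx genes were high. In WT the ratio of replicates 1 and 2 to 3 and 4 was 20.5 (interval 5.32 to 175). In ATG5KO replicates 1 and 2, where Mx2 had 218 reads, Fam3b had 0. Further out on the Mx1 side, Igsf5, a junctional adhesion molecule of kidney and intestine, was lower in VAMP7KO (-3.40, SE 0.608) and in ATG5KO (-2.25, SE 0.537), and Dscam, a neuronal adhesion molecule, was higher in ATG5KO (2.51, SE 0.724) and not called in VAMP7KO. The other neighbours within 5 places could not be matched to identifiers and were not analysed here.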

How the data were processed

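NRK cell RNA was sequenced in 12 libraries, 4 for each genotype (WT, VAMP7KO, ATG5KO), grouped by their labels. The deposited values are counts, made by the authors: reads were trimmed (cutadapt 4.2, Phred limit 20, at least 40 bases), cleared of rRNA (bowtie 2.2.8), mapped to mRatBN7.2 (STAR 2.7.10b) and counted per Ensembl release 110 gene (htseq-count 0.13.5), without normalization. How reads that fit several genes were treated is not given in the sources used here. The study also used DESeq2 1.34.0 (R 4.1.1), and its result columns were not used.

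Counts were fitted with edgeR 4.0.16 (limma 3.58.1, R 4.3.3; TMM, filterByExpr, quasi-likelihood F test, Benjamini-Hochberg over 13141 genes, adjusted p under 0.05), all 12 libraries in 1 fit and the replicate number blocked, as the study adjusted for a batch it does not name. Differences between replicate pairs came from a fit of 6 groups of 2 libraries. The SE is the log2 difference over the square root of its F statistic. A group with no read in any library was set to the floor of 3 counts per library and its fold written as a bound, and other groups at few reads have a ratio with its interval. Ratios are of summed counts over summed TMM-scaled library sizes, with exact 95% binomial (Clopper-Pearson) intervals. Levels carry a pseudocount of 0.1 CPM where logged.

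Libraries of equal number deviated together from the genotype means (correlation 0.571 to 0.691), but so did those of the same pair with another number (0.536 to 0.689), and those of the other pair deviated oppositely (-0.694 to -0.552). The block thus stands for the pairs. The study calls its 4 experiments independent, but by these correlations the libraries grouped by replicate pair. P-values between genotypes measure the spread left after the replicate number was blocked. Those between pairs measure the spread between 2 libraries of the same genotype and pair. Neither measures the spread between clones.

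Mx1, Mx2, the lists, the replicate pairs and the tests were chosen with earlier results of these data known. Genes are named by a fixed rule: Mx1 and Mx2, the targeted gene, list members with a known identifier, the 5 most alike to each Mx gene and up to 5 neighbours on each side. Symbols were known for 1976 genes. Promoter windows are RefSeq's on GRCr8, a build other than that of the counts. Of 86 interferon symbols, 68 matched, and Mx2 did not. The scripts were tested on simulated data. Alternatives were DESeq2 size factors, the DESeq2 1.42.0 Wald test, every gene with at least 1 count, no replicate block, the replicate pair as the block, only the genotypes compared, each replicate pair alone and each library left out. Figures were drawn with matplotlib 3.10.9, and other steps used scipy 1.17.1, numpy 2.4.6 and pandas 2.3.3 in Python 3.11.15.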

Additional observations from a re-analysis of the deposited data

Results flagged for a closer look

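Mx2 differed from WT in opposite directions in ATG5KO: the log2 ratio of mean CPM + 0.1 was -0.41 in replicates 1 and 2 and 2.16 in replicates 3 and 4, with both libraries of each pair on their side of WT. The difference between the pairs was not tested, because Mx2 was chosen for it.

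Cd14 had 41.16 CPM in ATG5KO replicate 2, beside 45.2 to 45.8 CPM in the other 3 ATG5KO libraries, which is far from them on the scale of the spread in that genotype. Chance gives such a flag in about 1 of 20 groups.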

How the results depend on the processing

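The Mx differences depended on the replicate pair and on single libraries. On the log2 scale, Mx1 in VAMP7KO minus WT was -5.59 with all replicates, -8.34 with replicates 1 and 2 only and -2.98 with replicates 3 and 4 only. Mx1 in ATG5KO minus WT was -8.07, -9.69 with replicates 1 and 2 only and -5.58 with replicates 3 and 4 only, and Mx1 in VAMP7KO minus ATG5KO was 2.48, and 1.36 with replicates 1 and 2 only. Fitted values of Mx1 against groups at the floor depend on the prior count and are no bounds. Mx2 in VAMP7KO minus WT was -2.81, and -0.047 with replicates 3 and 4 only. Mx2 in ATG5KO minus WT was 0.47 with the replicate block, changed sign with no replicate block (-0.15) and with replicates 1 and 2 only (-0.43), and also without WT replicate 3 (-0.055), with a range of -0.055 to 1.06 over the 12 libraries left out in turn. Leaving out a library gave -7.31 (without WT replicate 4) to -4.51 (without VAMP7KO replicate 1) for Mx1 in VAMP7KO minus WT, -9.55 (without WT replicate 4) to -7.14 (without ATG5KO replicate 2) for Mx1 in ATG5KO minus WT, -3.22 (without WT replicate 3) to -2.11 (without WT replicate 1) for Mx2 in VAMP7KO minus WT, 0.95 to 3.78 for Mx1 in VAMP7KO minus ATG5KO, with 0.95 without VAMP7KO replicate 4 and 3.78 without ATG5KO replicate 4, -5.79 to -4.97 for Mx2 between the WT pairs and -2.42 to -1.34 between the VAMP7KO pairs. Of the interferon list, 8 were called in VAMP7KO minus WT and 16 with replicates 1 and 2 only. Between the VAMP7KO pairs 11 were called, and 6 to 9 with a VAMP7KO library left out, the 6 without replicate 2 or without replicate 3. The shares of all genes called in these alternative fits are not given here, so the counts do not single out the list. The causes were not tested. All other list counts stayed within 1.5 times of those given, over 35 of 36 alternatives beside leaving out a library, the replicate block included. Mx1 between the knockouts with only those fitted, and Mx2 between the WT and the VAMP7KO pairs with only that genotype fitted, gave no value, since the gene then fails the filter on low counts. Depth limits Mx1 in the knockouts, where 7 of 8 libraries had 3 reads or fewer.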
